A study of Mus musculus with 5 samples.

Results

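Oxidative phosphorylation genes of the nucleus were examined in ChIP-seq data of H3K4me3, the trimethylation of histone H3 at lysine 4, and of Cxxc1 from double-positive (DP, CD4+CD8+) thymocytes. The genes were taken by symbol as the autosomal protein-coding genes of the mm9 assembly whose names begin with Nduf, Cox4 to Cox8, Uqcr or Atp5, together with Sdha, Sdhb, Sdhc and Sdhd. This gave 89 gene entries under 88 symbols, since Ndufb8 has 2 entries, of 21410 autosomal protein-coding genes. The X-linked Cox7b, Ndufa1 and Ndufb11 were left out, as were the genes of the mitochondrial genome. Names do not always give function. Entries were classed as structural subunits, with tissue isoforms among them, or as the complex I assembly factors named Ndufaf. Outside these classes stood 5 entries matched by name: Cox4nb (a subunit of a membrane protein complex of the endoplasmic reticulum), Cox7a2l, Atp5s, Atp5sl and Atp5l-ps1. Any role of these 5 in assembly was not considered. The remainder comprised 80 structural subunits, among them 8 isoforms restricted to some tissues, and the 4 Ndufaf genes.

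Oxidative phosphorylation is carried out in the inner mitochondrial membrane. Complexes I and II take electrons from NADH and succinate, complexes III and IV pass them on to oxygen, and complex V, the ATP synthase, uses the proton gradient so formed. Cxxc1 binds unmethylated CpG dinucleotides through its CXXC zinc finger and is a subunit of the Set1 histone methyltransferase complexes, which place H3K4me3 at the promoters of active genes, many of them housekeeping genes with CpG-rich promoters.

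The WT thymocytes came from Cxxc1 fl/fl mice and the Cxxc1-deficient thymocytes from Cxxc1 fl/fl hCD2-Cre mice, in which a human CD2 promoter drives Cre in the lymphoid lineage. All groups therefore carried the floxed allele. The sample titles call the deficient cells KO whereas their genotype label reads Cxxc1+/-, and the titles were followed. Each of the 5 samples was 1 library, so no difference between genotypes had a replicate check and no test was made, and the Cxxc1-deficient Cxxc1 ChIP and the WT input were not analysed here.

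The deposited lists give 200-bp windows inside called regions and the signal of each as RPM, the tag number scaled to 1000000 mapped reads, for WT H3K4me3, Cxxc1-deficient H3K4me3 and Cxxc1. The Cxxc1 list names no genotype and is WT by the study's methods. From the smallest step of the values, the libraries behind the lists held between 9106000 and 9462000 mapped tags. The lists were of unequal length, with 14193 autosomal peaks (windows joined across at most 2 missing ones) in WT and 2975 in Cxxc1-deficient cells for H3K4me3, and 4330 for Cxxc1. The weakest listed peak held 10 tags (1.1 RPM) in each list, so that a promoter without a listed window has an unknown value and not a value of 0. Of the DP thymocyte markers, 5 of 11 had a WT H3K4me3 window at the promoter (Bcl11b, Cd3e, Cd8a, Cd8b1 and Tcf7), while Cd4, Rag1, Rag2, Cd3d, Cd3g and Themis had none. Of the markers of other cells, none of 4 B cell, 4 myeloid and 4 epithelial genes and 1 of 4 erythroid genes (Klf1, 0.5 RPM) had one.

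Promoter sequences are shown for the CpG dinucleotides that Cxxc1 binds. For members with a window in both genotypes (Uqcr11 and Uqcrfs1), with high WT signal and no window without Cxxc1 (Cox4nb), and with a Cxxc1 window (Ndufa4 and Cox5b), the 120 bases before the most 5′ transcription start site (TSS) are shown in mm9, 5′ to 3′ along the gene, with each CpG in capitals. Stretches that overlapped an annotated exon were not shown.
Uqcr11, chr10:79869576-79869695, minus strand: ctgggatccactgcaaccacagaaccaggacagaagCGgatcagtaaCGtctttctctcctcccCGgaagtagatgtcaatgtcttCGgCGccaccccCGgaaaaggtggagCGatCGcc
Uqcrfs1, chr13:30637232-30637351, minus strand: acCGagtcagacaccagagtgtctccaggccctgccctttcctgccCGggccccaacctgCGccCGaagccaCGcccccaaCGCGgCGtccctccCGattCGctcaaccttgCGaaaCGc
Cox4nb, chr8:123192013-123192132, minus strand: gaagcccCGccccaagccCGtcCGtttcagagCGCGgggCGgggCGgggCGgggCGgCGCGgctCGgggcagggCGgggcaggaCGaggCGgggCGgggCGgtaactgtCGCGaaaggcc
Ndufa4, chr6:11857447-11857566, minus strand: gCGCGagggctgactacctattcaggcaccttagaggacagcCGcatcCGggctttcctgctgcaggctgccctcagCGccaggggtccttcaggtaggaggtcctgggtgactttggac
Cox5b, chr1:36748212-36748331, plus strand: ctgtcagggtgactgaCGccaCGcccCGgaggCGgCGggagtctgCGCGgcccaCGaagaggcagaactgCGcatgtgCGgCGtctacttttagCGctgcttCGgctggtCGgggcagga

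These stretches held 8 CpGs at Uqcr11, 12 at Uqcrfs1, 19 at Cox4nb, 5 at Ndufa4 and 14 at Cox5b. The Cox4nb stretch lies between 2 diverging genes, since its TSS is 178 bp from that of Cox4i1, and it held 8 matches to the Sp1 motif. The number also differed within a kind of promoter (5 and 14 at the 2 genes shown with a Cxxc1 window). Atp5g1, which had a Cxxc1 window too, is not shown. From 250 bases before to 50 after the TSS, the median was 18.5 CpGs in members marked in WT and 16 in the others, with overlapping quartiles (15 to 24.25 and 9 to 23).

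In WT cells, 44 of the 89 genes (49.4%) had a listed H3K4me3 window within 1 kb of a TSS, where 32.3% of all autosomal protein-coding genes did. In Cxxc1-deficient cells 12 of the 89 (13.5%) had one, beside 6.05% of all genes. Of the 44 genes marked in WT, 8 (18.2%) were also listed in Cxxc1-deficient cells, beside 12.7% of all genes marked in WT. A further 4 genes were listed in Cxxc1-deficient cells only. They are 8.89% of the 45 members without a WT window, beside 2.88% of all such genes. Where no TSS of another protein-coding gene lay within 2 kb, this share was 2.94% of members, beside 2.37% of all genes. Where such a TSS lay there, it was 27.3%, beside 7.6%. The remaining 41 genes had no window in either H3K4me3 list. Most members marked in WT (36 of 44) thus had no listed window without Cxxc1, as did most marked genes of the genome.

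**Figure D1:**
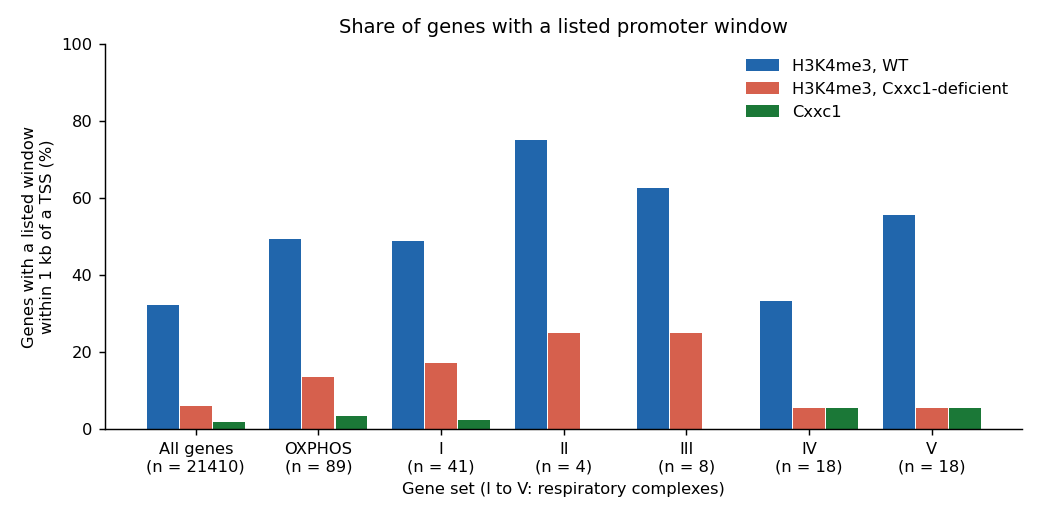
Percent of genes (vertical axis) with at least 1 listed window within 1 kb of a TSS, for all autosomal protein-coding genes, all oxidative phosphorylation genes (OXPHOS) and each complex (horizontal axis, n in brackets), with 1 library behind each bar colour. For WT H3K4me3 the share was 32.3% of all genes and 49.4% of the members, and it ran from 33.3% in complex IV to 75% in complex II, which has 4 genes.

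The listed WT values of the members lay near those of all marked genes. The median over the 44 marked genes was 2.15 RPM, with quartiles of 1.88 and 2.5 RPM, beside a median of 2.3 RPM and quartiles of 1.8 and 2.9 RPM over all 6917 marked genes. Among the genes described here the values ran from 0.9 RPM at Atp5o to 3.5 RPM at Ndufa13. Behind the sums stood 9 to 35 tags per gene in 2 to 8 windows, so the 95% exact Poisson intervals, which cover counting error only, were wide. That of Ndufa13 ran from 2.58 to 5.15 RPM and that of Ndufb5 (3.3 RPM), close behind it in the order, from 2.4 to 4.9 RPM, so that these neighbours did not differ beyond counting error. The interval of Atp5o, 0.44 to 1.81 RPM, did not overlap that of Ndufa13. These genes were picked as the lowest and highest, and at Atp5o the zone held only 2 windows of a peak of 1.8 RPM.

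**Figure D2:**
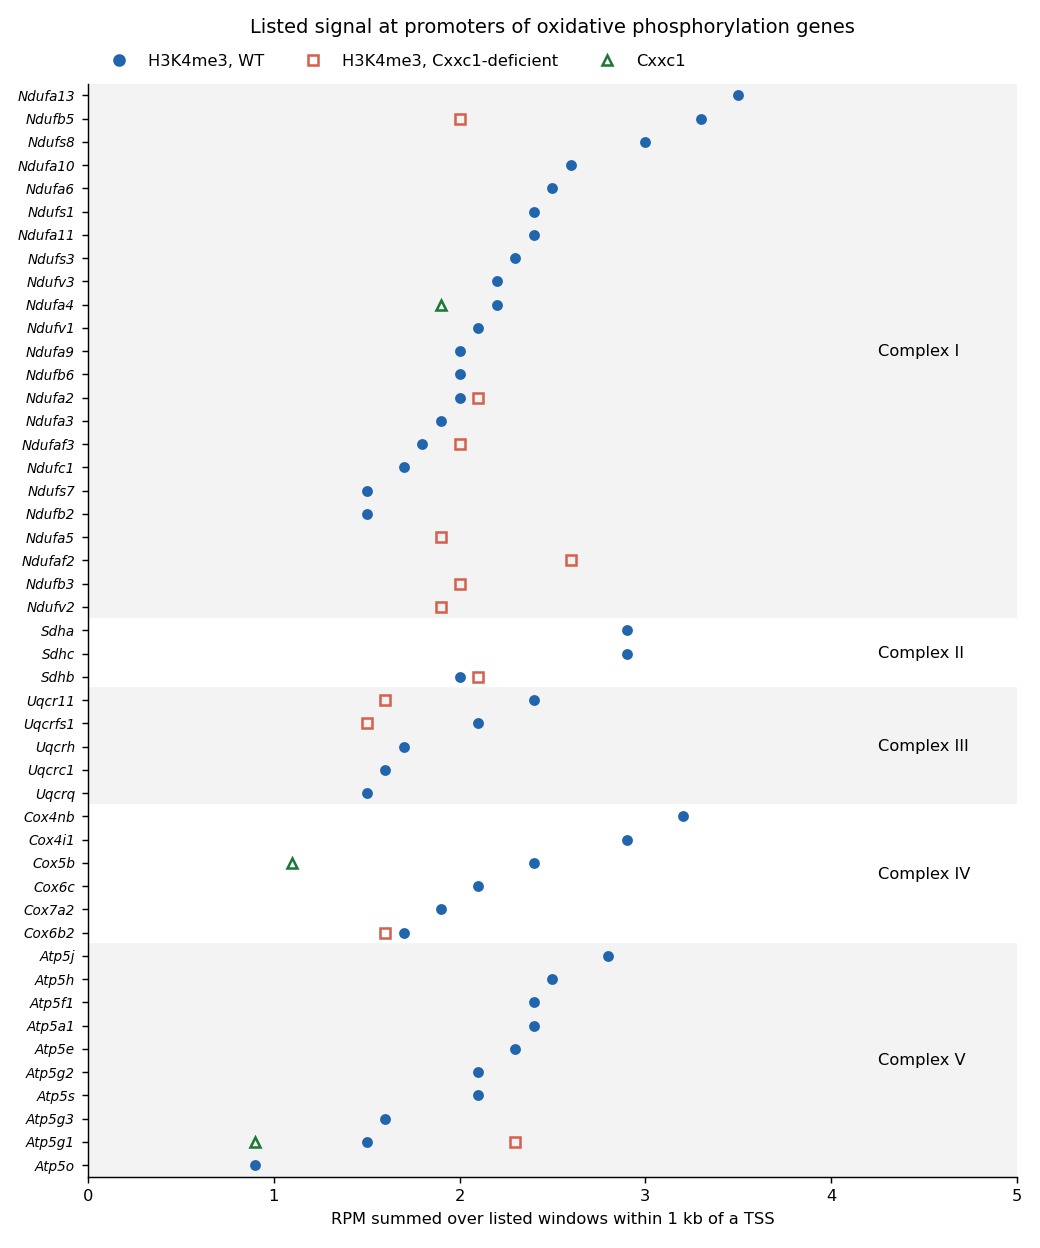
RPM summed over the listed windows within 1 kb of a TSS (horizontal axis) for 47 members with an H3K4me3 window in either genotype, by complex, with filled circles for WT H3K4me3, open squares for Cxxc1-deficient H3K4me3 and triangles for Cxxc1; a missing symbol means that no window was listed. The WT values plotted ran from 0.9 to 3.5 RPM and Cxxc1-deficient values from 1.5 to 2.6 RPM.

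Complex I, the NADH dehydrogenase, was the largest group with 41 genes, of which 20 were marked in WT and 7 in Cxxc1-deficient cells. Several of its core subunits, those conserved from bacteria that carry the flavin and the iron-sulfur clusters or lie at the quinone site, were marked in WT. Ndufs8, an iron-sulfur subunit, had 3.0 RPM and Ndufs1, another, 2.4 RPM. Ndufs3 had 2.3 RPM, Ndufv1, which binds NADH, 2.1 RPM and Ndufs7 1.5 RPM. None of these 5 genes was listed in Cxxc1-deficient cells. Ndufv2, an iron-sulfur subunit beside Ndufv1, showed the opposite listing, with no window in WT and 1.9 RPM (19 tags) in Cxxc1-deficient cells.

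Of the 29 other subunits of complex I, 13 were marked in WT and 4 in Cxxc1-deficient cells. The highest WT values were at Ndufa13 (3.5 RPM), also known as GRIM-19, at Ndufb5 (3.3 RPM) and at Ndufa10 (2.6 RPM). Ndufa13 shares its promoter zone with Tssk6, whose TSS is 374 bp away, and Ndufb5 with Mrpl47, whose TSS is 20 bp away. The 4 assembly factors named Ndufaf help to build the complex without staying in it. Of these, only Ndufaf3 was marked in WT (1.8 RPM), and Ndufaf3 and Ndufaf2 were listed in Cxxc1-deficient cells. Ndufaf1 and Ndufaf4 were in neither list. The unlisted subunits were Ndufa12, Ndufa7, Ndufa8, Ndufab1, Ndufb4, Ndufb7, Ndufb8, Ndufb9, Ndufb10, Ndufc2, Ndufs4, Ndufs5 and Ndufs6.

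Complex II, succinate dehydrogenase, has 4 genes and also serves in the citric acid cycle. Its flavoprotein Sdha and its membrane anchor Sdhc each had 2.9 RPM in WT and no window in Cxxc1-deficient cells. Its iron-sulfur subunit Sdhb had 2.0 RPM in WT cells and 2.1 RPM in cells without Cxxc1. Sdhd, the other anchor, was not listed in either. Of the 4 genes, then, Sdhb was the 1 with windows in both genotypes.

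In complex III, the cytochrome bc1 complex, 5 of 8 genes were marked in WT and 2 in Cxxc1-deficient cells. Uqcr11, a small subunit, had the highest WT value with 2.4 RPM, followed by the Rieske iron-sulfur protein Uqcrfs1 with 2.1 RPM and by Uqcrh with 1.7 RPM. Uqcr11 and Uqcrfs1 were the 2 that kept a window. Uqcrc1 (1.6 RPM) and Uqcrq (1.5 RPM) were listed in WT only, and Uqcr10, Uqcrb and Uqcrc2 in neither genotype. The WT peak at Uqcr11 was the widest of any member at 4600 bp and held 6.3 RPM, most of it outside the 1 kb zone.

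Complex IV, cytochrome c oxidase, had the lowest share of genes marked in WT, 6 of 18, and 1 was listed in Cxxc1-deficient cells. The 18 include restricted isoforms and the name matches Cox4nb and Cox7a2l. Of the 9 other subunits, 4 (44.4%) were marked in WT, beside 48.8% of complex I genes. The highest WT values were at Cox4nb (3.2 RPM), Cox4i1 (2.9 RPM) and Cox5b (2.4 RPM). Cox4nb and Cox4i1 lie in 1 peak of 3400 bp, so their values are not independent. Many complex IV subunits exist as a widely expressed form and a form restricted to tissues such as muscle, heart, lung or testis. Of the 8 restricted isoforms, 7 had no window in either genotype (Cox4i2, Cox6a2, Cox7a1, Cox7b2, Cox8b, Cox8c and, by name in complex I, Ndufa4l2). The exception was Cox6b2, the testis form of subunit 6b, which had 1.7 RPM in WT cells and 1.6 RPM in cells without Cxxc1. Its strongest window in both genotypes lay 996 bp after the TSS, at the edge of the zone. In WT 1.4 RPM lay after the TSS and 0.3 RPM before it, and in Cxxc1-deficient cells 0.7 and 0.9 RPM. The widely expressed counterpart Cox6b1 was unlisted. The widely expressed forms were not marked as a rule either, since Cox4i1 and Cox7a2 (1.9 RPM) had WT windows and Cox6a1, Cox6b1 and Cox8a did not. Cox5a, Cox7c and Cox7a2l were likewise unlisted.

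In complex V, 10 of 18 genes were marked in WT and 1 in Cxxc1-deficient cells. The highest WT values were at Atp5j (2.8 RPM), which couples the catalytic head to the stalk, at Atp5h (2.5 RPM) and at Atp5f1 of the stalk and Atp5a1 of the catalytic head (2.4 RPM each). Of the 5 subunits of the F1 head, Atp5a1 and Atp5e (2.3 RPM) were marked, and Atp5b, Atp5c1 and Atp5d were not. The 3 Atp5g genes encode the same mature c subunit of the membrane ring from different promoters. Atp5g1 had 1.5 RPM, Atp5g2 2.1 RPM and Atp5g3 1.6 RPM in WT, with overlapping intervals, and Atp5g1 alone of these was listed in Cxxc1-deficient cells. Atp5j diverges from Gabpa, a transcription factor gene whose TSS is 379 bp away, so the windows cannot be assigned to 1 gene of the pair. Atp5j2, Atp5k, Atp5l, Atp5sl and Atp5l-ps1 were unlisted.

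For the 8 members with windows in both genotypes, each promoter sum was taken over the windows of its own list, so the windows summed differ between genotypes. The zones of Ndufa2 and Ndufb5 also cover the TSS of Ik (108 bp away) and of Mrpl47 (20 bp away). The windows at these genes cannot be assigned to 1 gene of the pair. Ndufa2, a complex I subunit, had 2.0 RPM (20 tags) in WT and 2.1 RPM (21 tags) in Cxxc1-deficient cells, and Sdhb had the same values. Ndufaf3 had 1.8 RPM (18 tags) and 2.0 RPM (20 tags), and Cox6b2 1.7 RPM (17 tags) and 1.6 RPM (16 tags). These 4 genes differed by at most 2 tags between the libraries. Ndufb5 had 3.3 RPM (33 tags) in WT and 2.0 RPM (20 tags) in Cxxc1-deficient cells, the lowest ratio of Cxxc1-deficient to WT signal at 0.607 (95% exact interval 0.330 to 1.09). Uqcr11 had 2.4 and 1.6 RPM, a ratio of 0.668 (0.332 to 1.31), and Uqcrfs1 2.1 and 1.5 RPM, a ratio of 0.716 (0.343 to 1.46). Atp5g1 went the other way with 1.5 RPM (14 tags) in WT and 2.3 RPM (23 tags) in Cxxc1-deficient cells, a ratio of 1.65 (0.812 to 3.46).

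All 8 intervals held 1, and the median ratio was 0.997, with 4 genes below 1 and 4 above. With only windows of at least 0.4 RPM the median ratio was 0.626. For none of these promoter sums was a difference between genotypes detectable at this depth, and ratios as low as 0.330 or as high as 3.46 lay inside 1 of the intervals. RPM is scaled to the mapped reads of each library, so these ratios cannot show whether the absolute level of H3K4me3 was kept. Windows listed in both genotypes gave a different picture, with a median ratio of 0.845, as 6 of the 8 genes had less Cxxc1-deficient than WT signal over the windows they shared and 2 had more. Over these 26 shared windows the WT sum was 11.7 RPM and the Cxxc1-deficient sum 9.7 RPM. At Atp5g1 the 2 shared windows held 1.5 RPM in WT and 0.6 RPM without Cxxc1, a ratio of 0.4, so that its higher Cxxc1-deficient sum came from windows that the WT list does not hold. At Sdhb and Ndufaf3 the ratio also turned from above 1 to below it, at 0.706 and 0.929, and at Uqcr11 it turned from below 1 to 1.09. These comparisons see only genes listed in both files and say nothing of the 36 listed in WT alone.

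**Figure D3:**
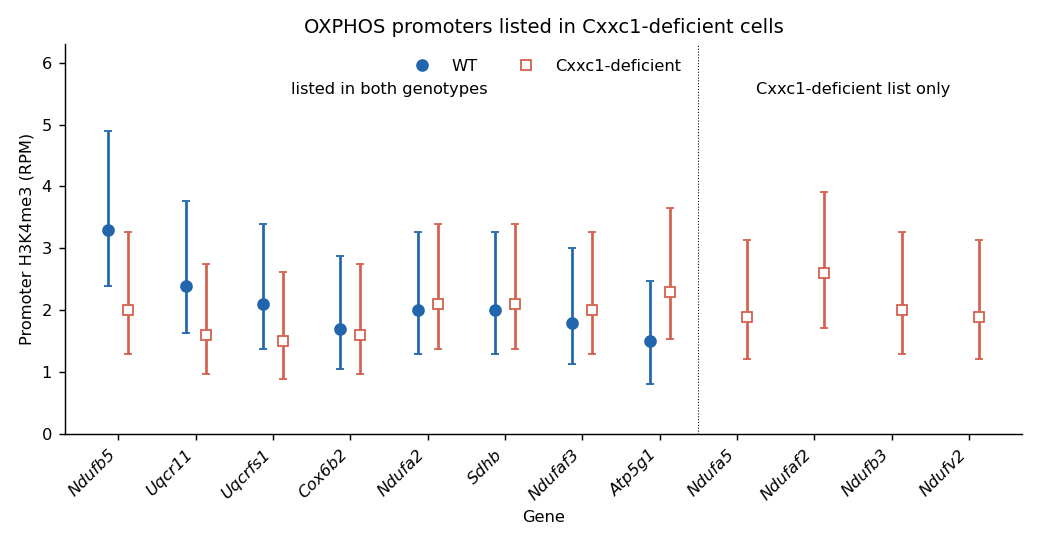
Promoter H3K4me3 in RPM (vertical axis) of the 12 members listed in Cxxc1-deficient cells, with filled circles for WT and open squares for Cxxc1-deficient cells; bars are 95% exact Poisson intervals on the tag number of 1 library each. The intervals of the 2 genotypes overlap at each of the 8 genes listed in both, and the 4 genes on the right have no listed WT window.

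Whether a gene kept a window was set beside its WT level. Among all marked genes the kept share was 9.64%, 11.2%, 12.2% and 18.1% from the lowest to the highest of 4 classes of WT RPM of similar size. The members numbered 3 kept of 11, 3 of 15, 1 of 13 and 1 of 5 in the same classes. The lower classes, at 2.3 RPM or less, held 6 of the 8 kept members and 26 of the 44 marked ones (59.1%). In the highest class Ndufb5 kept a window, while Ndufa13 and Cox4nb had none in Cxxc1-deficient cells.

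The 4 members listed in Cxxc1-deficient cells only were all complex I genes by name. Ndufaf2 had 2.6 RPM (25 tags), Ndufb3 2.0 RPM (20 tags), Ndufa5 1.9 RPM (19 tags) and Ndufv2 1.9 RPM (19 tags). At 3 of them the zone also covers the TSS of a second gene, with Ercc8 113 bp from Ndufaf2, Fam126b 61 bp from Ndufb3 and Asb15 131 bp from Ndufa5, and here too the windows cannot be assigned to 1 gene. Ndufv2 has no such neighbour. Their nearest WT windows lay 8.6 kb from Ndufv2, 27.47 kb from Ndufb3, 55.48 kb from Ndufaf2 and 135.89 kb from Ndufa5. Such listings have no replicate, and the WT signal at these places is unknown.

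Cxxc1 windows within 1 kb of a TSS were listed for 3 members (3.37%), beside 1.93% of all genes. All 3 also had WT H3K4me3 windows there, beside 45.9% of all genes with a Cxxc1 window. Ndufa4, named for complex I and later assigned to complex IV, had 4 Cxxc1 windows with 1.9 RPM (18 tags) at -654 to 346 bp from the TSS (negative values upstream), over 7 WT H3K4me3 windows with 2.2 RPM. Its Cxxc1 peak at chr6:11857001-11858600 held 2.3 RPM. Cox5b had 3 Cxxc1 windows with 1.1 RPM (11 tags) over WT H3K4me3 of 2.4 RPM, inside a peak at chr1:36748001-36750800 of 3.2 RPM that stood at percentile 97.6 of Cxxc1 peaks by strength. Atp5g1 had 2 Cxxc1 windows with 0.9 RPM (9 tags) 884 and 1084 bp after its most 5′ TSS, in a peak at chr11:95935601-95936200 that overlapped no H3K4me3 peak. Of these 3 genes, Ndufa4 and Cox5b had no H3K4me3 window in Cxxc1-deficient cells and Atp5g1 did.

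Taking the gene span and 10 kb upstream, 6 members (6.74%) held a Cxxc1 peak, beside 11.6% of all genes. The additional genes were Atp5s, with a peak at -3.15 kb (1.5 RPM), Ndufa7, 2.56 kb into the gene (1.7 RPM), and Uqcrc1, 5.54 kb into the gene (2.3 RPM). None of these 3 peaks overlapped an H3K4me3 peak. Of the 36 members with H3K4me3 listed in WT only, 4 (11.1%) held a Cxxc1 peak in this span (Ndufa4, Cox5b, Atp5s and Uqcrc1), beside 15.4% of all genes listed in WT only. The span searched grows with gene length, for which neither comparison was matched. It held a Cxxc1 peak for 6.49% of mitochondrial ribosomal protein genes and 7.84% of proteasome genes.

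The windows of marked members lay close around the TSS. At 100 bp after the most 5′ TSS, 88.6% of the 44 members marked in WT had a listed window, beside 76.8% of all marked genes. WT peaks at members were 1200 bp wide in the median (400 to 4600 bp), beside 1600 bp for all promoter peaks, and their median strength was 2.3 RPM, beside 2.5 RPM for all promoter peaks. In Cxxc1-deficient cells the median width at the 12 members was 1700 bp, beside 1600 bp over all promoter peaks. The share of signal after the TSS was 57.1% in the median of members in WT, beside 58.3% of all genes.

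**Figure D4:**
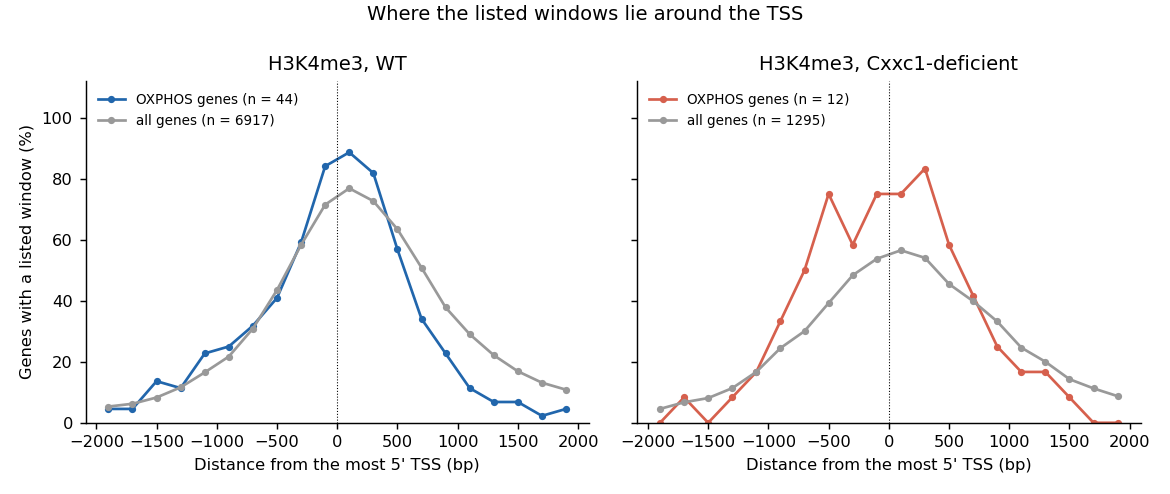
Percent of marked genes with a listed window (vertical axis) at each distance in bp from the most 5′ TSS (horizontal axis, negative values upstream), for WT (left, 44 members and 6917 genes) and Cxxc1-deficient H3K4me3 (right, 12 members and 1295 genes). In WT the share at 100 bp after the TSS was 88.6% of members and 76.8% of all marked genes; each point on the right moves by several percent with 1 member.

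Promoters of the members had a higher median CpG ratio than those of all genes. In the 1000 bp around the TSS the median ratio of observed to expected CpG was 0.725, beside 0.563 for all genes, at a similar GC content of 56.3% and 55.1%. The ratio was 0.722 for mitochondrial ribosomal protein genes and 0.695 for proteasome genes. By a rule of at least 55% GC and a CpG ratio of at least 0.65, 42 members (47.2%) were CpG-rich, beside 36.2% of all genes. Of these 42, 27 (64.3%) were marked in WT, beside 56.8% of all CpG-rich promoters. Of the 47 other members 17 (36.2%) were, beside 18.4%. The 8 restricted isoforms had a median CpG ratio of 0.323 and none was CpG-rich, Cox6b2 included with 0.433. The 3 members with a Cxxc1 window at the promoter were all CpG-rich.

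**Figure D5:**
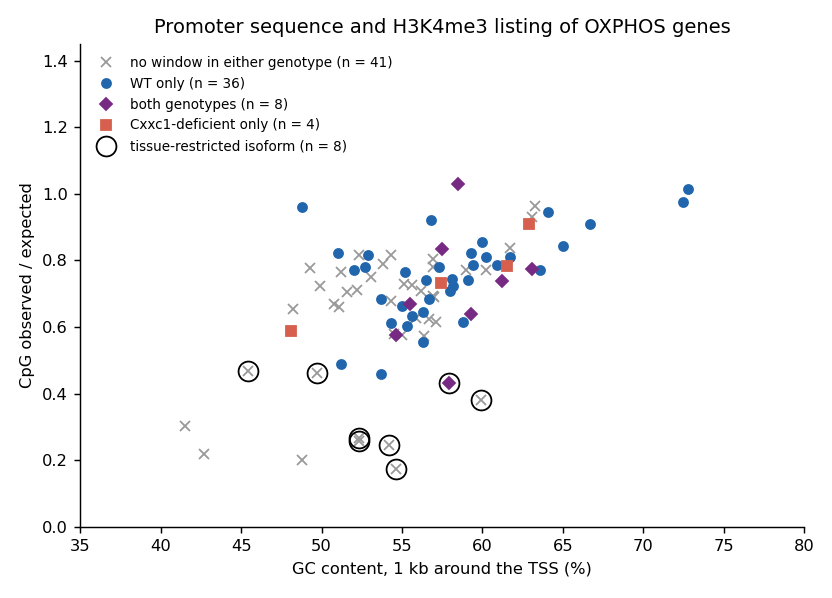
GC content in percent (horizontal axis) and observed over expected CpG (vertical axis) in 1 kb around the most 5′ TSS of the 89 members, with the symbol giving the H3K4me3 lists that hold the gene and open rings marking the 8 tissue-restricted isoforms. The restricted isoforms lie low, with a median CpG ratio of 0.323 beside 0.725 for all members, and Cox6b2 is the only ringed gene with windows.

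Many members had a close neighbour, as 28 of 89 (31.5%) had the TSS of another protein-coding gene within 2 kb, beside 14.6% of all genes. The share was 41.6% of mitochondrial ribosomal protein genes and 25.5% of proteasome genes. For 22 of the 28 members the distance was at most 200 bp. With such a neighbour 17 of 28 members (60.7%) were marked in WT, beside 55.5% of all genes with a neighbour. Without one, 27 of 61 (44.3%) were marked, beside 28.3%. The share of marked members was thus above that of all genes in both classes, and closer to it where there was a neighbour.

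Motifs of factors known for respiratory genes were counted by their letters on both strands from 250 bases before to 50 after the TSS. The NRF1 motif was in 15 members (16.9%), beside 6.21% of all promoters and 12.9% of CpG-rich ones. The GABPA/Ets motif CCGGAAG was in 17 members (19.1%), beside 11.1% and 18.5%, and the YY1 motif AANATGGC was in 17 (19.1%), beside 6.54% and 8.24%. Sp1 (GGGCGG, 47.2% of members) and the CCAAT box (CCAAT, 37.1%) stood near the shares of all promoters, 44.3% and 37.6%. Among CpG-rich promoters the shares were 77.7% and 36%. Of the members only 42 (47.2%) were CpG-rich, so these sets are unlike and no conclusion is drawn from their Sp1 shares. At least 1 of the first 3 motifs was in 44 members (49.4%), beside 21.1% of all promoters and 34% of CpG-rich ones, Sdha having 3 NRF1 matches. Of the 12 members listed in Cxxc1-deficient cells, none had the NRF1 letters and 3 had those of YY1. The GABPA/Ets letters were in 1 (Uqcr11, 57 bases before the TSS in the stretch shown). Sp1 letters were in 6 of the 12 and the CCAAT box in 7. A match is a description of the letters only.

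Other genes of the pathway were read in the same way, against the 32.3% of all genes with a WT window and the 2.88% listed in Cxxc1-deficient cells among those without. Of 28 assembly factors and electron carriers outside the members, 16 (57.1%) had a WT window and 1, the copper chaperone gene Cox11, had windows in both genotypes. Of 12 citric acid cycle genes 7 (58.3%) were marked in WT, and Mdh2, malate dehydrogenase, was listed in Cxxc1-deficient cells only (2.3 RPM). Of 18 regulators of respiratory genes and mitochondrial DNA 12 (66.7%) were marked in WT. In this last group Ppargc1b had 3.2 RPM in WT cells and 1.7 RPM in cells without Cxxc1, Sp1 had 2.8 and 3.4 RPM, and Tfam, which packages mitochondrial DNA, was listed in Cxxc1-deficient cells only (2.3 RPM). For comparison with large housekeeping complexes, 36 of 77 mitochondrial ribosomal protein genes (46.8%) and 26 of 51 proteasome genes (51%) were marked in WT, and 6 (7.79%) and 5 (9.8%) in Cxxc1-deficient cells. Of the genes marked in WT, 8.33% and 19.2% were also listed in Cxxc1-deficient cells, beside 18.2% of members. Of those without a WT window, 7.32% and 0% were listed in Cxxc1-deficient cells only, beside 8.89% of members. The WT shares of the 3 gene families differed by at most 4.2 percentage points, and no test between them was made.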

How the data were processed

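ChIP-seq of H3K4me3 and Cxxc1 was measured in DP thymocytes. Per the study's methods, fixed chromatin was sonicated and sequenced with 50-bp reads, uniquely mapped reads on mm9 were used, and enriched regions were called with SICER (version 1.1 per the submitters' processing notes). The methods name input and the ChIP of Cxxc1-deficient cells as controls without saying which served for H3K4me3, and the aligner is not given in the sources used here. Either could change which windows are listed. The authors deposited RPM values for 200-bp windows inside called regions at 1 decimal, and places outside these have no value.

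Groups were taken from sample titles. Tag numbers were inferred from the step of the RPM values (1 tag was 0.10569 to 0.10572 RPM in WT). A window counted when its midpoint lay within 1 kb of a TSS of any protein-coding transcript (GENCODE vM1, same assembly as mm9), and RPM was summed over these windows. Where zones of several TSSs joined, the summed stretch was longer. Windows across at most 2 missing ones were joined into peaks. Intervals are 95% exact Poisson for RPM and exact conditional binomial for ratios, and cover counting error only. Scripts used Python 3.11.15, numpy 2.4.6, pandas 2.3.3 and scipy 1.17.1 and were tested on simulated data.

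With 1 library per group no test was made, and counts are given beside all autosomal genes. The members and lists were chosen with earlier results of these data known. Named genes were the 3 highest in WT of each complex, every member listed in Cxxc1-deficient cells or with a Cxxc1 peak, the isoform pairs and the unlisted members. Core subunits of complex I were named as a group, after their values were seen. The values of 1 member are not reported here, although it enters the counts and medians.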

Additional observations from a re-analysis of the deposited data

How the results depend on the processing

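No paired analysis was possible because 1 library stood for each group. Of 61 alternative values for 8 counts and medians, 51 stayed within 1.5 times the count or within the interval of the median. Among these, an alternative chosen after seeing the data, took only windows listed in both genotypes and gave a median ratio of 0.845, with the ratio of single genes crossing 1. With windows within 500 bp the median WT value of marked members was 1.7 RPM, and with only windows of at least 0.4 RPM it was 1.5 RPM, since fewer windows enter the sum. The latter also gave a median ratio of Cxxc1-deficient to WT signal of 0.626 in place of 0.997, and the cause was not tested. With only the stronger 50% of peaks, 26 members were marked in WT, 3 in both genotypes, and 3 had a Cxxc1 peak in the gene span with its upstream stretch; with 50 kb upstream the last count was 17. Of the 61 members whose zone overlaps no other gene's, 27 were marked in WT, 7 in Cxxc1-deficient cells and 1 in Cxxc1-deficient cells only. That 1 was 2.94% of these members without a WT window, beside 2.37% of all such genes. With an overlapping zone the share was 27.3%, beside 7.6%. Depth limits the reading: the weakest listed peak held 10 tags, and loss of a listing cannot be told apart from a fall below the calling threshold.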
